A study of Rattus norvegicus with 3 samples.

Results

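The histone genes of the rat retina were described in 3 RNA-seq libraries. They were taken as every row whose symbol begins with Hist1h to Hist4h, H2af, H3f3 or H1f, which gave 52 of the 32883 rows in each table. Of these, 39 carry a Hist locus name and are called replication-dependent histone genes below, and 13 are variant histone genes (H2af, H3f3 and H1f). Retina of Sprague-Dawley rats, aged 60 days after birth (postnatal day 60), gave the RNA, from which ribosomal RNA was removed. In the HIOP_GSK library, a compound known only as GSK had been injected into the anterior chamber of the eye 24 h before ischemia. In the HIOP library (high intraocular pressure), the eye was held at 110 mmHg for 60 min without the compound, and in both of these the retina was taken 12 h after pressure was returned to normal. The CTL retina is labelled as untreated, while the protocol speaks of sham surgery, in which a needle was inserted but pressure was left at 2.66 kPa. The labels name no eye injected with vehicle alone, and they give neither the dose nor how many animals each library holds.

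Histones package DNA into nucleosomes: an octamer of H2A, H2B, H3 and H4 carries the DNA wrap, and the linker histone H1 binds where the DNA enters and leaves. The replication-dependent genes lie in clusters, are transcribed mainly in S phase, and give messenger RNA that ends in a stem-loop in place of a poly(A) tail. Variant genes lie singly, give mostly polyadenylated RNA and supply histones outside S phase, so they are the main source of new histone in neurons that no longer divide. Libraries made by removing ribosomal RNA, as here, keep RNA without a poly(A) tail.

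The libraries held 15132754 counts in HIOP_GSK, 17221510 in HIOP and 16090064 in CTL. As each group is 1 library, differences lack a replicate check and carry no p-value. The folds are ratios of counts scaled by the TMM factors of edgeR, each followed in brackets by its exact 95% interval (Clopper-Pearson), which covers counting error only. The 2-fold limit for a gene applies to log2 CPM (counts scaled to library size) with a prior count of 2, and 14932 genes had a mean CPM of at least 1 over the 3 libraries. Rod markers took 1.78% of counts in HIOP_GSK, 2.504% in HIOP and 2.61% in CTL, and none of the 6 was without a count. Markers of neighbouring tissue and of immune cells were unequal. Lens markers took 1.07%, 0.279% and 0.105% of counts in HIOP_GSK, HIOP and CTL, and microglia and macrophage markers 0.0156%, 0.00588% and 0.00433%. Neutrophil and monocyte markers took 0.0319%, 0.0256% and 0.00127% in the same order, with 6 of the 10 at no count in CTL. In whole retina, a change in the number of cells of a type and a change in RNA per cell cannot be told apart.

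Of the 52 rows, 5 had no count in any library: the H4 genes Hist2h4 and Hist1h4b and the variants H1fnt, H2afb3 and H2afj. Another 4 had counts but a mean CPM below 1: the testis-type genes Hist1h2aa, Hist1h2ba and Hist1h1t, and H1foo, the linker histone of oocytes. The other 43, 34 replication-dependent and 9 variant, passed the filter. Histone sequences are nearly the same across copies, and the sources used here do not say how reads that match several copies were counted, so every split of counts among copies is uncertain. The symbol Hist1h4m stands on 5 rows and Hist1h2ail1 on 2, told apart here by their Ensembl identifiers. Hist2h2aa2, Hist2h2aa3 and Hist2h3c2 had counts in each library but are listed at 0 in the deposited TPM, a transcript abundance per length.

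Variant H3 rows and H4 rows together held most histone RNA. On counts, variant H2A rows ranked above H4, with 4903, 5383 and 4902 against 4114, 4795 and 4460 in HIOP_GSK, HIOP and CTL. On the TPM scale H4 ranked above the H2A variants. All 52 rows took 0.206% of counts in HIOP_GSK, 0.205% in HIOP and 0.179% in CTL. H3f3a and H3f3b, which encode the same replacement H3 protein, held 50.4%, 54.9% and 47.7% of these histone counts in HIOP_GSK, HIOP and CTL. On the TPM scale, the replication-dependent H3 rows supplied 5.38% of all H3 in HIOP_GSK, 1.78% in HIOP and 2.40% in CTL. In the H2A family the replication-dependent share of TPM was 56.9% in HIOP_GSK, 38.8% in HIOP and 37.1% in CTL, with 392, 169 and 173 summed TPM for these rows and 297, 266 and 294 for the H2A variants. On counts, which are not per length, that share was 27.2%, 18.2% and 17.6%, so these genes are the larger part of H2A only on the TPM scale and only in HIOP_GSK. H2B and H4 have no variant gene in the set. Among the replication-dependent counts, H4 rows made up 39.7% in HIOP_GSK, 48.2% in HIOP and 46.2% in CTL, and linker H1 rows 25.7%, 29.1% and 30.8%.

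**Figure D1:**
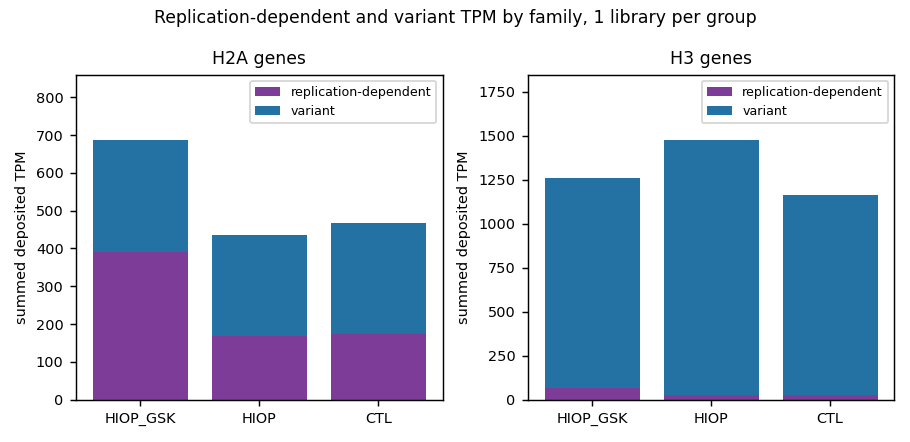
Summed deposited TPM (y axis) of replication-dependent (purple) and variant (blue) genes of the H2A family (left panel) and H3 family (right panel) in the HIOP_GSK, HIOP and CTL libraries, 1 library per bar. The purple part of H2A is 392 TPM in HIOP_GSK, against 169 in HIOP and 173 in CTL, while the H3 bars are almost all variant. On counts the replication-dependent share of H2A is lower, at 27.2%, 18.2% and 17.6% in HIOP_GSK, HIOP and CTL.

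HIOP_GSK over HIOP sets the injured retina that had received the compound against the one that had not. No library of vehicle alone was analysed here, so the compound and its injection cannot be told apart. Many replication-dependent H2A, H2B and H3 genes and the scarcer linker genes were higher in HIOP_GSK, and the H4 rows as a family and the abundant linker genes Hist1h1c and Hist1h1e were not. Of the 34 rows that passed the filter, 10 were higher by 2-fold or more and 1 was lower by as much, where 3.88% and 1.32% of all 14932 genes were. At a limit of 1.5-fold these numbers were 20 and 1, where 8.57% and 4.11% of all genes passed. The median log2 ratio was 0.67, against 0.00 over all genes, and 30 of the 34 were above 0. The summed counts of all 39 rows were 10365 in HIOP_GSK and 9953 in HIOP, a ratio of 1.18 (1.14 to 1.21), and the rows with the most counts were among those not higher. The 10 higher rows had 52 to 272 counts in HIOP_GSK and 13 to 92 in HIOP, so their intervals are wide, and 7 of the 10 intervals lay wholly above 2-fold.

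Promoters of replication-dependent genes share short elements, and the windows of 3 such genes that the results turn on are printed with that of H3f3b, the most abundant variant. The sequences are RefSeq's on the build GRCr8, from 250 bases before to 50 after the annotated start, matched by symbol or synonym, which gave a single gene for 36 of the 52 rows and a window for 33. Capitals mark the octamer ATTTGCAT, the CCAAT box and the TATA element TATAAA on either strand, none of which contains another, though TATAAA and its complement overlap once in Hist2h2be.
Hist1h2bk (RefSeq H2bc12, chr17:47181891-47182190, strand minus): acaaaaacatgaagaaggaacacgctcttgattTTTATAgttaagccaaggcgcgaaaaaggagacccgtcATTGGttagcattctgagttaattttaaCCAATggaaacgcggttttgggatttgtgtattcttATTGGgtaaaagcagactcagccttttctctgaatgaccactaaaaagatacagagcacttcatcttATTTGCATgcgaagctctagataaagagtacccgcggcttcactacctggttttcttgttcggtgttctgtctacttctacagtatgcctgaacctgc
Hist1h3b (RefSeq Hist1h3b, chr17:47418946-47419245, strand plus): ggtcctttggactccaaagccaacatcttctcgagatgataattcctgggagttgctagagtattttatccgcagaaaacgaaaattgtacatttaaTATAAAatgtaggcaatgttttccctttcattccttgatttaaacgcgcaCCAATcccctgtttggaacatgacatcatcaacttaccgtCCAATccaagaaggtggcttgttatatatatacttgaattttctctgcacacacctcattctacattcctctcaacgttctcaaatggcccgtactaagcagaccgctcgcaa
Hist2h2be (RefSeq Hist2h2be, chr2:186469202-186469501, strand plus): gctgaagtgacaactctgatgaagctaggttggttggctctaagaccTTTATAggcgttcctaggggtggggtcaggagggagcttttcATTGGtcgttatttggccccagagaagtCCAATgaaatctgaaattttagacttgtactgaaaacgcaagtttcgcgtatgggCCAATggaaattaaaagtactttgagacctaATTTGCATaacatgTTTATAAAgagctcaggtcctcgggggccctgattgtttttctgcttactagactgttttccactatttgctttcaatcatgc
H3f3b (RefSeq H3f3b, chr10:101757587-101757886, strand minus): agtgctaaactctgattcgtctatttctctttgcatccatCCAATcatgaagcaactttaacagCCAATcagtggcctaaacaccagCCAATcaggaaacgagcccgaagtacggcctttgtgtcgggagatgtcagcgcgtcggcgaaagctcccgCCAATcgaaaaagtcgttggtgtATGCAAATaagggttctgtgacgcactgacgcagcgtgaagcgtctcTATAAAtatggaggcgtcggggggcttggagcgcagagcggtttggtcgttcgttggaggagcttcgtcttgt
Of the 22 replication-dependent windows, 4 were of H1, 9 of H2A, 7 of H2B and 2 of H3 genes. No H4 row had a window, so H4 promoters are not described. The octamer stood in 10 of the 22, all of them H2A or H2B genes, where 1.78% of 33469 rat promoter windows of this length held it. The CCAAT box stood in 21 of the 22, against 37.5% of all windows, and TATAAA in 17, against 14.2%. Of the 11 variant windows, 1 held the octamer, that of H3f3b, 7 the CCAAT box and 2 TATAAA. The windows of Hist2h2be and its neighbour Hist2h2ac face opposite ways and share 275 bases, and those of Hist1h2ba and Hist1h2aa share 261. The octamer of each pair lies in the shared part and is counted in both windows, so the 10 are not all separate sites. A match describes these letters only, at any position in the window, and is not a measured binding site.

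Among the H3 genes, Hist1h3b had 120 counts in HIOP_GSK, 37 in HIOP and 35 in CTL, a ratio of 3.66 for HIOP_GSK over HIOP (2.51 to 5.45). On counts the HIOP_GSK library alone was high, and HIOP and CTL were nearly equal. Its deposited TPM was 38.9 in HIOP_GSK, 8.6 in HIOP and 13.6 in CTL. Hist1h3a, with 88, 56 and 53 counts in HIOP_GSK, HIOP and CTL, was 1.77-fold higher (1.26 to 2.53). Hist2h3c2 had 23, 17 and 10 counts, too few to place it, since its interval ran from 0.781 to 3.05.

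All 8 H2B rows that passed the filter had log2 ratios above 0, as had 7472 of all 14932 genes. Of these 8 rows, 4 were at least 2-fold higher, where 3.88% of all genes were. Hist1h2bh had 56 counts in HIOP_GSK, 13 in HIOP and 10 in CTL, a ratio of 4.87 for HIOP_GSK over HIOP (2.63 to 9.70). Its CPM was 3.69 in HIOP_GSK, 0.758 in HIOP and 0.622 in CTL. It thus passed the filter only through the library where it is high. Hist1h2bl had 161, 51 and 72 counts in HIOP_GSK, HIOP and CTL, a ratio of 3.57 (2.59 to 4.99), and 7.55 with the deposited TPM. Hist1h2bk, whose promoter is printed above with its octamer, had 150, 61 and 64 counts in the same order, a ratio of 2.78 (2.05 to 3.80). In all of these the HIOP_GSK library stood above the other two. Hist1h2bo, the H2B row with the most counts, had 598, 346 and 327 counts in HIOP_GSK, HIOP and CTL and a ratio of 1.95 (1.71 to 2.23), just under 2-fold. Hist1h2bd, with 52, 18 and 36 counts, was 3.26-fold higher (1.88 to 5.93). By contrast Hist3h2ba, a gene outside the large Hist1 cluster, had 375, 341 and 399 counts and a ratio of 1.24 (1.07 to 1.44), and Hist2h2be a ratio of 1.06 (0.614 to 1.81). Hist3h2bb, with 90, 66 and 87 counts, had one of 1.54 (1.11 to 2.15).

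Of 12 H2A rows, 3 lay above the 2-fold limit and 1 below it, where 3.88% and 1.32% of all genes did. Hist1h2ak had 81 counts in HIOP_GSK, 29 in HIOP and 27 in CTL, a ratio of 3.15 (2.04 to 5.0) for HIOP_GSK over HIOP. Hist1h2ai had 200, 81 and 83 counts in HIOP_GSK, HIOP and CTL, a ratio of 2.79 (2.14 to 3.66). Hist1h2ail1 on the row ENSRNOG00000054539 had 131, 59 and 46 counts, a ratio of 2.51 (1.83 to 3.47), and with both rows of that symbol summed the ratio was 2.10 (1.65 to 2.68). On counts these H2A genes were high in HIOP_GSK and close to each other in HIOP and CTL. On deposited TPM HIOP and CTL lay further apart for 2 of them. That Hist1h2ail1 row had 16.7 TPM in HIOP and 8.3 in CTL, and Hist1h2ai 13.0 and 21.2. The row with the most H2A counts, Hist1h2an, had 422, 286 and 228 counts in HIOP_GSK, HIOP and CTL, a ratio of 1.67 (1.43 to 1.94). Its TPM was only 3.93, 3.12 and 0.56 in the same order, whereas Hist1h2ah, with 350, 260 and 259 counts, had 103, 62.3 and 84.8 TPM. Counts and TPM thus rank these copies differently. Hist1h2ah was 1.52-fold (1.29 to 1.79), Hist1h2ao 1.85-fold (1.47 to 2.35) and Hist2h2ac 1.63-fold higher (1.27 to 2.10). Hist1h2ao had 192, 117 and 81 counts and Hist2h2ac 157, 109 and 112 in HIOP_GSK, HIOP and CTL. With the deposited TPM the ratio of Hist1h2ao was 3.45, past the 2-fold limit. Hist1h2af, with 9, 25 and 21 counts, was 2.46-fold lower (1.11 to 5.99), on few counts. The remaining H2A rows lay within 2-fold, with 128, 116 and 93 counts for Hist2h2aa2, 55, 49 and 36 for Hist2h2aa3, and 24, 16 and 22 for Hist2h2ab in HIOP_GSK, HIOP and CTL. The testis-type genes Hist1h2aa and Hist1h2ba, whose promoter windows share 261 bases, were below the filter and went opposite ways on few counts. Hist1h2aa had 19, 4 and 1 counts in HIOP_GSK, HIOP and CTL, and Hist1h2ba 8, 22 and 18.

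The linker histone genes split. Hist1h1b had 272 counts in HIOP_GSK, 92 in HIOP and 148 in CTL, a ratio of 3.34 (2.63 to 4.28) for HIOP_GSK over HIOP, and here HIOP was also below CTL. Hist1h1a, with 122, 51 and 65 counts in HIOP_GSK, HIOP and CTL, was 2.70-fold higher (1.93 to 3.82), and Hist1h1d, with 264, 180 and 194 counts, 1.66-fold (1.37 to 2.01). Hist1h1e had 783, 862 and 825 counts and a ratio of 1.03 (0.930 to 1.13). Hist1h1c, the linker gene with the most counts, had 1215, 1698 and 1729 counts and in HIOP_GSK was 1.24-fold lower than in HIOP (1.15 to 1.33) and 1.34-fold lower than in CTL (1.25 to 1.45). Hist1h1t, the linker gene of testis, had 11, 18 and 13 counts. The 2 linker genes with the most counts were at most 1.24-fold apart between HIOP_GSK and HIOP on counts, and Hist1h1a, Hist1h1b and Hist1h1d were higher in HIOP_GSK.

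No H4 row was 2-fold different on counts in this comparison. Of all genes, 3.88% were higher and 1.32% lower by as much, and with so few rows none is near those shares. On deposited TPM the Hist1h4m row ENSRNOG00000057690 was past the limit, with 41.35 TPM in HIOP_GSK and 12.98 in HIOP. The Hist1h4m row ENSRNOG00000051891, with the most counts of any replication-dependent row, had 1468 in HIOP_GSK, 2115 in HIOP and 1820 in CTL, and was 1.28-fold lower in HIOP_GSK than in HIOP (1.19 to 1.36). Hist2h4a, with 901, 1037 and 1054 counts in HIOP_GSK, HIOP and CTL, was 1.02-fold lower (0.931 to 1.12). The row ENSRNOG00000054017 had 686, 667 and 585 counts and a ratio of 1.16 (1.04 to 1.29), and ENSRNOG00000050933 had 560, 555 and 548 counts and a ratio of 1.14 (1.01 to 1.28). The scarcer rows ENSRNOG00000058444, with 327, 286 and 313 counts, and ENSRNOG00000057690, with 172, 135 and 140, had ratios of 1.29 (1.10 to 1.52) and 1.44 (1.14 to 1.82). The highest H4 ratios were those of the scarcest rows. The summed 5 rows of Hist1h4m gave 3213, 3758 and 3406 counts, a ratio of 0.966 (0.921 to 1.01). As a family, H4 rows had 4114 counts in HIOP_GSK and 4795 in HIOP, a ratio of 0.969 (0.929 to 1.01), whereas the ratio was 1.73 (1.61 to 1.86) for summed H2A rows, 1.81 (1.67 to 1.96) for H2B and 2.37 (1.88 to 3.00) for H3.

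All 10 rows higher on counts carry Hist1 names, the large cluster whose matched genes lie on chromosome 17 of GRCr8. Of the Hist1 rows, 25 passed the filter. None of the 7 Hist2 rows and none of the 2 Hist3 rows that passed was 2-fold different on counts. Of all genes, 3.88% were higher and 1.32% lower by as much, and with so few rows none is near those shares. The median log2 ratios of Hist2 and Hist3 were 0.33 and 0.46, against 0.80 for Hist1. Hist1 rows also include some that hardly differed, such as Hist1h1e. The deposited TPM gave 13 rows at least 2-fold higher, among them all 10 called on counts, where 486 of all 14932 genes were higher on TPM. Called on TPM alone were Hist1h2ao, the Hist1h4m row ENSRNOG00000057690 and Hist2h2ab. Hist2h2ab, a Hist2 row, had 4.69 TPM in HIOP_GSK and 1.7 in HIOP, so the restriction to Hist1 holds on counts only.

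**Figure D2:**
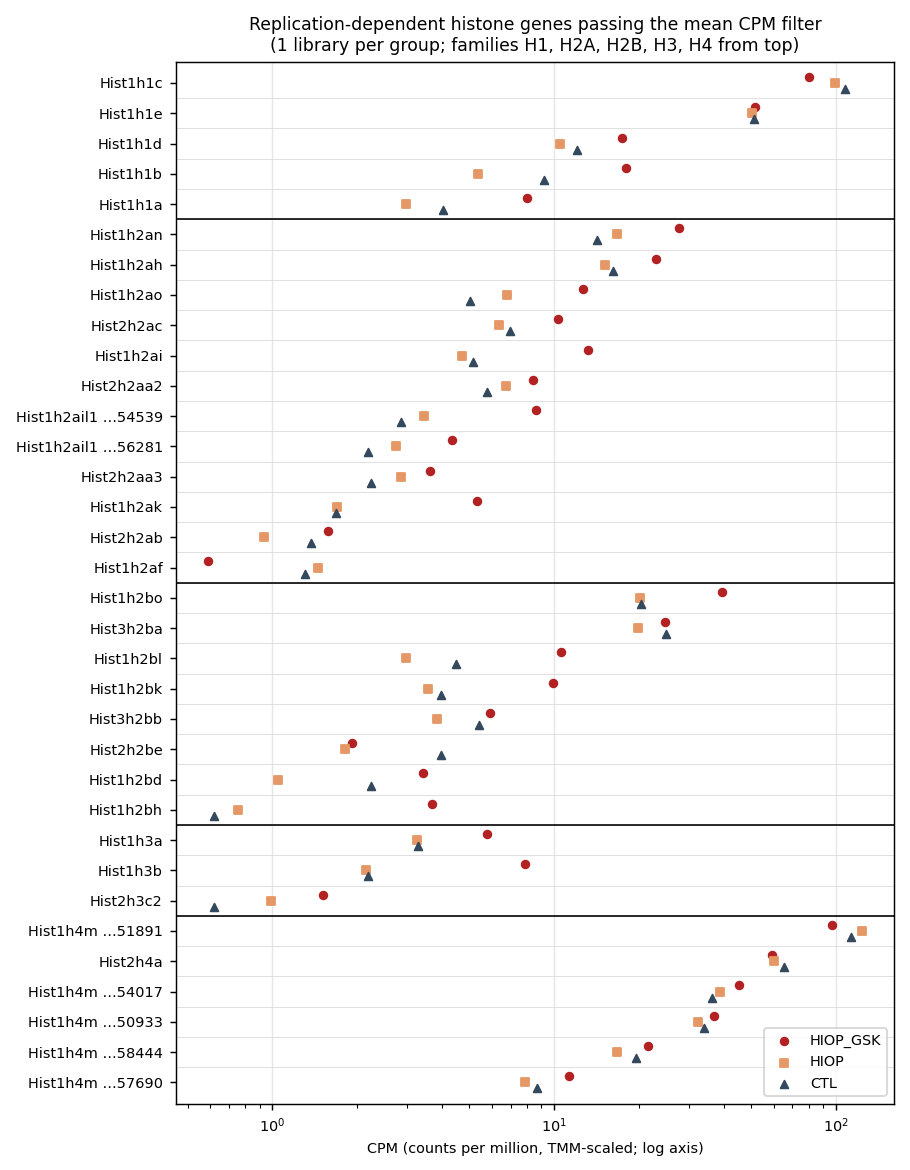
CPM (x axis, log scale) of the 34 replication-dependent rows that passed the filter, one row each, in HIOP_GSK (circles), HIOP (squares) and CTL (triangles), 1 library per group; black lines part the families. Circles stand to the right for most H2A, H2B and H3 rows and for Hist1h1b and Hist1h1a, and lie close to the other symbols for Hist1h1e and the H4 rows.

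Variant genes differed less between HIOP_GSK and HIOP than replication-dependent ones, with a median log2 ratio of -0.07. Of the 9 that passed the filter, 8 were within 2-fold, as were 14155 of all 14932 genes. H3f3b had 11842 counts in HIOP_GSK, 14708 in HIOP and 11251 in CTL, and H3f3a had 3890, 4639 and 2498. In HIOP_GSK they were 1.10-fold (1.07 to 1.13) and 1.06-fold lower than in HIOP (1.01 to 1.10). H2afz, which encodes the H2A variant found beside active promoters, had 835, 660 and 686 counts in HIOP_GSK, HIOP and CTL, a ratio of 1.43 for HIOP_GSK over HIOP (1.29 to 1.58). Its close relative H2afv had 539, 575 and 605 counts and a ratio of 1.06 (0.94 to 1.19). H2afx, the variant phosphorylated at DNA breaks, had 789, 890 and 642 counts and a ratio of 1.0 (0.909 to 1.10). The macro-domain variants H2afy and H2afy2, linked to silent chromatin, had 2361, 2802 and 2515 and 379, 456 and 454 counts, and were 1.05-fold (0.994 to 1.11) and 1.07-fold lower (0.928 to 1.22). H1fx, a linker variant, had 97, 97 and 86 counts, and H1foo had 2, 1 and 3.

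The 1 variant row past 2-fold was H3f3c, which RefSeq lists as a pseudogene on GRCr8. It had 93 counts in HIOP_GSK, 450 in HIOP and 419 in CTL, and was 4.28-fold lower in HIOP_GSK than in HIOP (3.42 to 5.42) and 4.26-fold lower than in CTL (3.39 to 5.39). Its TPM was 9.67 in HIOP_GSK, 42.7 in HIOP and 48.0 in CTL, so the deposited quantities place the HIOP_GSK library low on both scales. On the TPM scale H3f3a had 455 in HIOP_GSK, 609.8 in HIOP and 372 in CTL, and H3f3b 725, 798 and 715. Reads of near-identical H3 copies may be split among these rows, and their part in this difference was not tested.

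**Figure D3:**
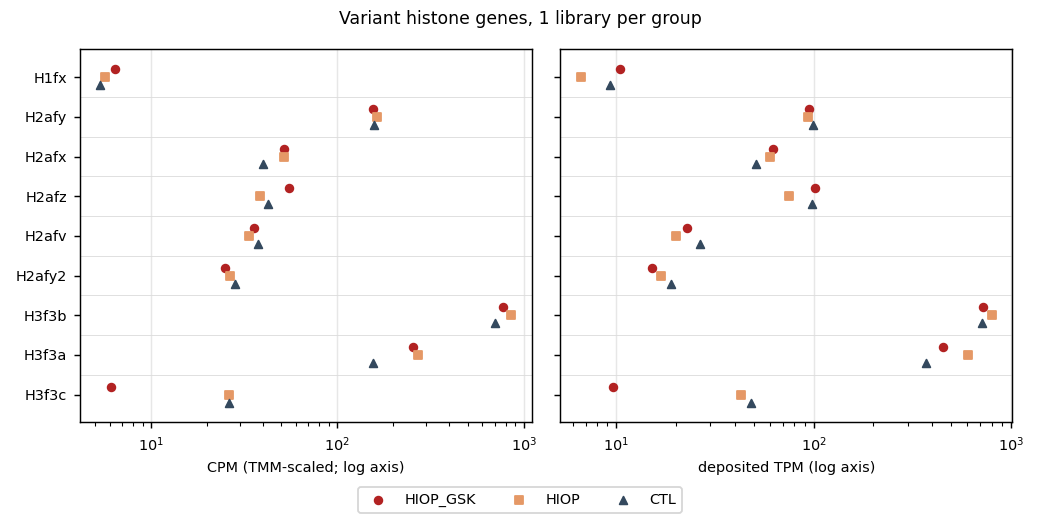
CPM (left, log axis) and deposited TPM (right, log axis) of the 9 variant rows that passed the filter in HIOP_GSK (circles), HIOP (squares) and CTL (triangles), 1 library per group. H3f3c stands apart with 93 counts in HIOP_GSK, against 450 in HIOP and 419 in CTL, and H3f3a is lowest in CTL.

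Ischemia and reperfusion without the compound is addressed by HIOP over CTL. Few histone rows passed the 2-fold limit in this comparison, where 8.5% of all genes lay above it and 7.45% below it. None of the 34 replication-dependent rows was above the limit and 2 were below it, and none of the 9 variants was 2-fold different in either direction. Such small numbers do not show that histone genes were stable. The summed variant H3 rows, which hold H3f3a and H3f3b, had a ratio of 1.31 (1.28 to 1.34). The median log2 ratios were -0.08 for replication-dependent rows and 0.06 for variants, against 0.00 over all genes. Summed counts gave a ratio of 0.966 (0.939 to 0.994) for replication-dependent and 1.24 (1.21 to 1.26) for variant genes.

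The 2 rows lower on counts were H2B genes. Hist2h2be had 29 counts in HIOP_GSK, 31 in HIOP and 64 in CTL, and was 2.20-fold lower in HIOP than in CTL (1.41 to 3.50). Hist1h2bd had 18 and 36 counts in HIOP and CTL and was 2.13-fold lower (1.18 to 3.99). Neither interval lay wholly beyond 2-fold, and both rows rest on few counts. Hist2h2ac, which shares most of its promoter window with Hist2h2be, had 109 counts in HIOP and 112 in CTL and was 1.10-fold lower on counts (0.835 to 1.44). On deposited TPM the direction of Hist2h2ac was the opposite, with 15.1 TPM in HIOP and 3.67 in CTL, so it has no settled direction here. Hist1h1b was 1.72-fold (1.31 to 2.25) and Hist1h2bl 1.51-fold lower on counts (1.04 to 2.20). On deposited TPM both were past the 2-fold limit, with 8.63 TPM in HIOP and 19.1 in CTL for Hist1h1b and 4.30 and 12.2 for Hist1h2bl, which made 4 lower rows in place of 2. TPM also put 3 rows above the limit, Hist2h2ac, Hist1h2an and Hist1h2bh, where counts put none. Of all 14932 genes, 993 were above the limit and 1160 below it on TPM. The H4 rows together had 4795 counts in HIOP and 4460 in CTL, a ratio of 1.01 (0.967 to 1.05). The summed ratio was 1.08 (0.989 to 1.17) for H2A rows and 1.05 (0.794 to 1.40) for H3 rows. Lower sums were seen for H2B, at 0.826 (0.756 to 0.902), with 7 of 8 rows below a log2 ratio of 0. Linker H1 rows stood at 0.914 (0.868 to 0.962), with all 5 below 0.

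Among variants, H3f3a had 4639 counts in HIOP and 2498 in CTL, a ratio of 1.74 (1.66 to 1.83), and H3f3b 14708 and 11251, a ratio of 1.23 (1.20 to 1.26). As both encode the same protein, their balance was also read: H3f3b stood at 1.60 times the TPM of H3f3a in HIOP_GSK, at 1.31 times in HIOP and at 1.92 times in CTL. H2afx, with 890 and 642 counts in HIOP and CTL, had a ratio of 1.3 (1.17 to 1.44). H2afz and H2afv were 1.11-fold (0.995 to 1.24) and 1.12-fold lower in HIOP (1.0 to 1.26), within or at the edge of counting error, and H2afy had a ratio of 1.04 (0.989 to 1.10).

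**Figure D4:**
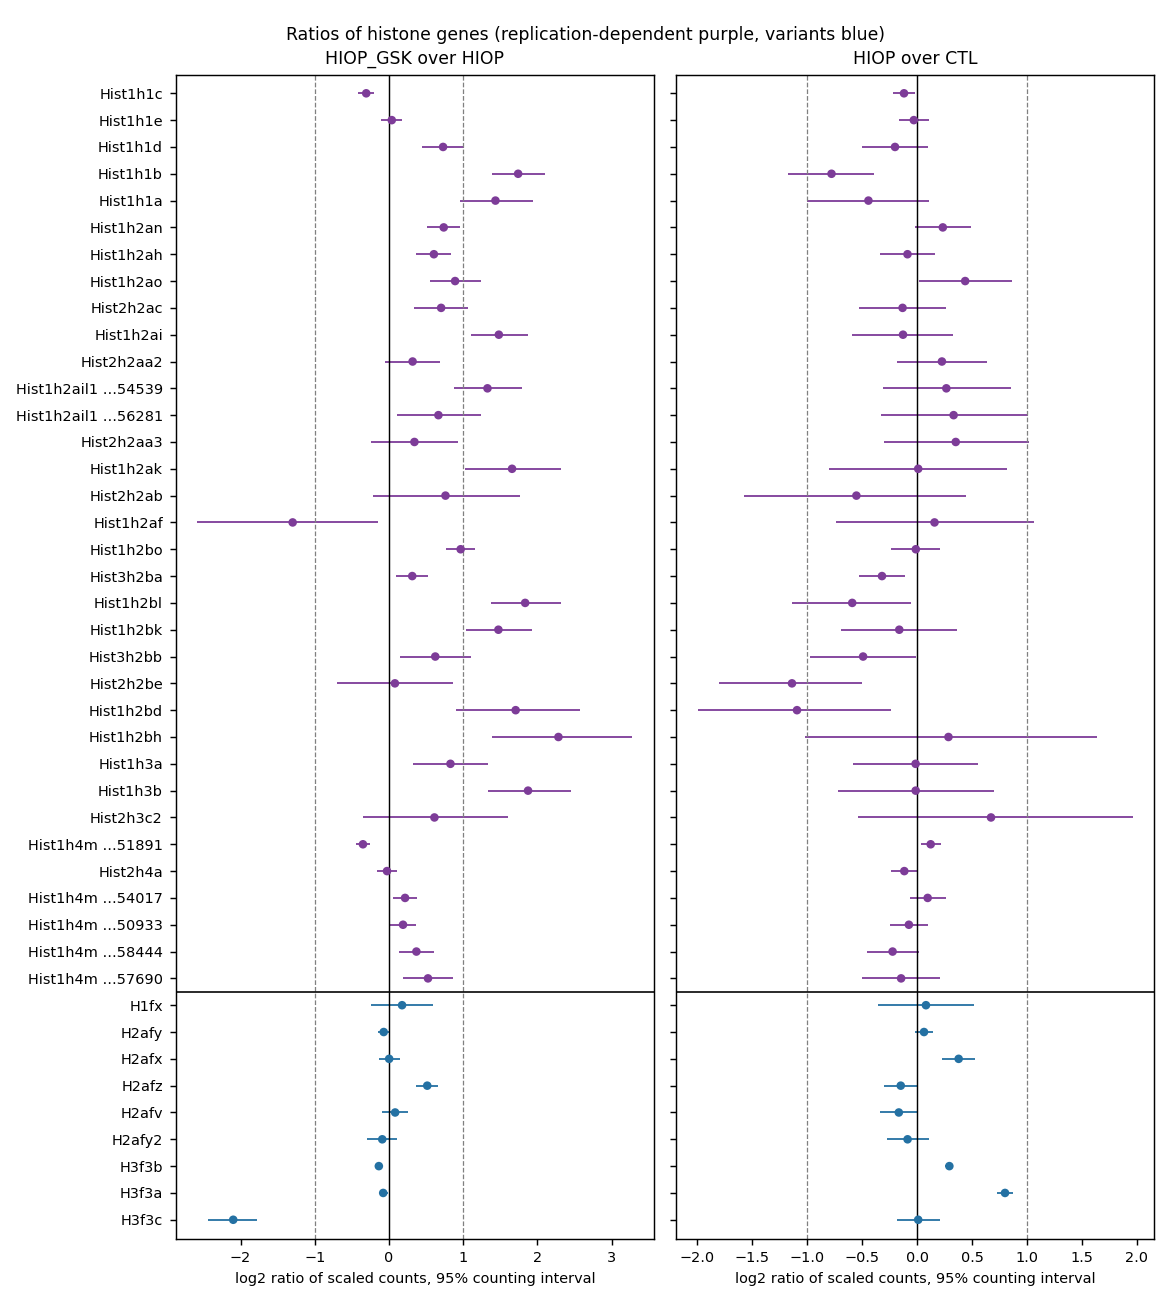
Log2 ratio of scaled counts (x axis, points) with its 95% counting interval (bars) for the 43 histone rows that passed the filter, HIOP_GSK over HIOP on the left and HIOP over CTL on the right; dashed lines mark 2-fold. Points of replication-dependent rows (purple) lie mostly right of 0 on the left panel and around 0 on the right panel. Hist1h2bh leads on the left panel at 4.87-fold and passed the filter only through HIOP_GSK. Among variants (blue), H3f3c alone is beyond 2-fold, on the left panel.

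The HIOP_GSK library was also set against CTL, which shares libraries with both comparisons above. Of the 34 replication-dependent rows, 9 were above the 2-fold limit and 1 was below it, where 9.72% and 5.71% of all genes were, and the median log2 ratio was 0.57. Hist1h2bh was 5.93-fold (3.00 to 13.0), Hist1h3b 3.63-fold (2.47 to 5.45) and Hist1h2ak 3.18-fold higher (2.03 to 5.11). Hist1h1b was 1.95-fold higher (1.59 to 2.39), less than over HIOP. H4 rows had a ratio of 0.976 (0.936 to 1.02), and H2A rows one of 1.86 (1.72 to 2.01). H3f3a was 1.65-fold (1.57 to 1.73), H2afx 1.3-fold (1.17 to 1.45) and H2afz 1.29-fold higher (1.16 to 1.43).

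Genes that work with histones were described from lists. Of 42 DNA replication and S phase genes that passed the filter, 11 lay above the 2-fold limit in HIOP_GSK over HIOP and none below it (median log2 ratio 0.40), where 3.88% of all genes lay above and 1.32% below. Rrm2, a subunit of ribonucleotide reductase, had 112 counts in HIOP_GSK, 19 in HIOP and 7 in CTL, a ratio of 6.66 (4.07 to 11.5) for HIOP_GSK over HIOP. Uhrf1, which maintains DNA methylation behind the fork, had 221, 58 and 53 counts, a ratio of 4.30 (3.21 to 5.85), and the helicase gene Mcm5 235, 75 and 38 counts, a ratio of 3.54 (2.72 to 4.65). These genes were highest in HIOP_GSK. Of 28 mitosis and proliferation genes, 20 lay above the limit and none below it (median 1.77), against the same shares of all genes, and Top2a, which untangles DNA in cells that divide, was higher in HIOP_GSK, at 12.1-fold (8.71 to 17.3). In HIOP over CTL 6 of the 42 S phase genes were above the limit (median 0.21), and of the 28 mitosis genes 1 was above and 1 below it (median 0.03), where 8.5% of all genes were above and 7.45% below. The higher gene was Kif11, a spindle motor, with 1800 counts in HIOP and 113 in CTL.

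Chaperones, which carry histones to DNA, had a median log2 ratio of -0.05 in HIOP_GSK over HIOP, and 2 of 27 were above the limit, where 3.88% of all genes were. These were Asf1b, a chaperone of H3 and H4 in dividing cells, with 51, 11 and 16 counts in HIOP_GSK, HIOP and CTL, a ratio of 5.24 (2.69 to 11.1), and Hjurp, which places the centromeric H3, with 64, 18 and 34 counts, a ratio of 4.02 (2.35 to 7.20). The chaperone genes with far more counts differed little, such as Nap1l1, with 6791, 8463 and 5401 counts, 1.10-fold lower (1.07 to 1.14). In HIOP over CTL, where 8.5% of all genes were above the limit, 1 of 27 was, Npm1, with 5593 and 1911 counts in HIOP and CTL, a ratio of 2.74 (2.60 to 2.89).

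The list of histone RNA 3' end processing had none of 21 genes 2-fold different in HIOP_GSK over HIOP (median log2 ratio 0.01). Of all genes, 3.88% were above the limit and 1.32% below it in this comparison. Slbp, the protein that binds the histone stem-loop, had 300, 263 and 264 counts in HIOP_GSK, HIOP and CTL, a ratio of 1.29 (1.09 to 1.53), and Npat, which drives histone gene transcription, 1592, 1629 and 1439 counts, a ratio of 1.10 (1.03 to 1.18). In HIOP over CTL 2 of the 21 were at least 2-fold higher, a share near the 8.5% of all genes: Eri1, an exonuclease that trims and degrades histone RNA, with 1891 counts in HIOP and 750 in CTL, a ratio of 2.36 (2.17 to 2.57), and Snrpg, a shared Sm protein, with 97 and 34 counts, a ratio of 2.67 (1.79 to 4.08). A list of 20 DNA damage response genes was drawn up around H2afx, and not all of them act on its product. None was 2-fold different in HIOP_GSK over HIOP (median -0.09), against the same 3.88% and 1.32% of all genes. In HIOP over CTL, where 8.5% of all genes were, 1 of the 20 was at least 2-fold higher (median -0.03), Cdkn1a, an inhibitor of the cell cycle, with 384 and 111 counts, a ratio of 3.24 (2.62 to 4.04).

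Markers of other cell types also differed between these libraries. In HIOP_GSK over HIOP, where 3.88% of all genes were above the limit and 1.32% below, all 12 lens markers were above the limit (median log2 ratio 2.45), as were 4 of 5 corneal and surface epithelium markers (median 2.29) and 10 of 11 microglia and macrophage markers (median 1.32). The epithelium markers summed to 51.8 CPM in HIOP_GSK, 11.3 in HIOP and 192 in CTL. Of 8 neutrophil and monocyte markers, 1 was above the limit and 1 below it. Of the lymphocyte markers, which summed to 2.44, 2.16 and 2.11 CPM in HIOP_GSK, HIOP and CTL, 1 of 9 passed the filter. Of 5 Müller glia markers, 3 were above the limit (median 1.02), and of 6 rod markers 1 was below it (median -0.38). In HIOP over CTL, where 8.5% of all genes were above the limit and 7.45% below, 11 of 12 lens markers and all 8 neutrophil and monocyte markers were above the limit, and 4 of 5 Müller glia markers and all 4 pigment epithelium markers were below it. The part of these cell types in the histone differences was not tested.

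**Figure D5:**
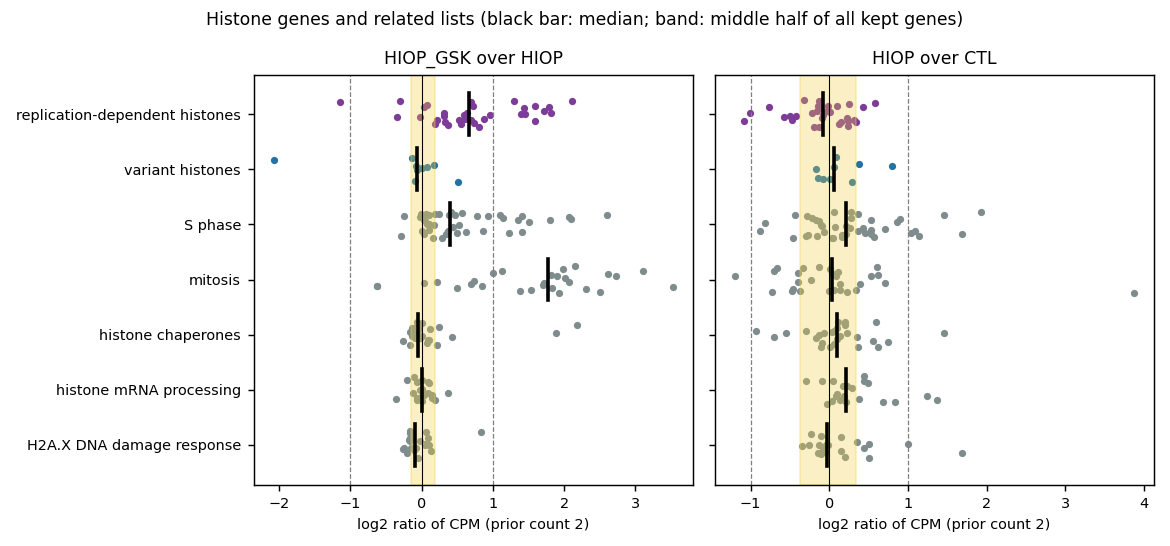
Log2 ratio of CPM with a prior count of 2 (x axis) for each gene that passed the filter (points) in the histone classes and in 5 related lists, HIOP_GSK over HIOP on the left and HIOP over CTL on the right; black bars are medians and the band is the interquartile range of all genes. On the left panel the median is 0.67 for replication-dependent histones, 0.40 for S phase and 1.77 for mitosis, and on the right panel these medians are -0.08, 0.21 and 0.03.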

How the data were processed

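RNA of 3 rat retina libraries was analysed, 1 per group. STAR 2.5.4b, RSEM 1.3.1 and the build Rnor_6.0 are named in the submitters' processing notes without the role of each; strand setting and the handling of reads that match several genes are not given in the sources used here. The deposited counts are whole numbers that are not normalized, and the deposited TPM of each library sums to 1e+06, per the file headers and the values. Counts were scaled with TMM factors of edgeR 4.0.16 (R 4.3.3), 1.004, 0.996 and 0.999 in HIOP_GSK, HIOP and CTL. The filter was a mean CPM of at least 1 over the libraries. A row can pass it through 1 high library, as Hist1h2bh and Hist2h3c2 did, each below 1 CPM in HIOP and CTL. Genes of the other lists can pass in the same way. Fold intervals are exact 95% Clopper-Pearson intervals (scipy 1.17.1), and they cover counting error only, since PCR reads without molecular identifiers are no independent count of molecules. No test across libraries was possible. The functions were tested on simulated counts.

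Members and lists were chosen with earlier results of these data known. The symbols named were, per subfamily, the 4 members with the most counts and each member with an interval wholly beyond 2-fold in HIOP over CTL or HIOP_GSK over HIOP; others are named where a count or contrast needed them, after their values were seen. Of each other list, up to 4 genes per comparison were eligible by the interval bound nearest to no difference. Alternatives were total counts, size factors of DESeq2 1.42.0, TPM as deposited (pseudocount 0.5), other filters, prior counts and a limit of 1.5-fold. Gene names of RefSeq GRCr8 were used for promoters only, and no Rnor_6.0 coordinates are given.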

Additional observations from a re-analysis of the deposited data

How the results depend on the processing

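No paired analysis was possible because each group has 1 library. Total counts without TMM and DESeq2 size factors moved none of the histone summaries and none of the 93 folds of named genes beyond its counting interval. With the deposited TPM, 34 of the 93 folds left that interval and none that was past 2-fold changed direction.

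With the deposited TPM, the summed ratio of replication-dependent genes was 0.927 for HIOP over CTL and 1.10 for HIOP_GSK over CTL, and that of variants was 0.869 in HIOP_GSK over HIOP, 1.20 for HIOP over CTL and 1.04 for HIOP_GSK over CTL; the cause was not tested. TPM also gave 3 replication-dependent rows higher and 4 lower in HIOP over CTL, and 2 lower in HIOP_GSK over CTL. Of all 14932 genes, TPM put 993 higher and 1160 lower in HIOP over CTL, and 941 lower in HIOP_GSK over CTL. A filter at a mean CPM of 5, which leaves 22 replication-dependent rows, gave 5 higher and 0 lower in HIOP_GSK over HIOP, 4 higher and 0 lower in HIOP_GSK over CTL, and 0 lower in HIOP over CTL. Of the 12041 genes that this filter leaves, 233 were higher and 77 lower in HIOP_GSK over HIOP. In HIOP_GSK over CTL 904 were higher and 471 lower, and in HIOP over CTL 644 were lower. A prior count of 10 gave 0 lower rows in each of the 3 comparisons, and one of 0.5 gave 2 lower in HIOP_GSK over CTL. With a prior count of 10, 909 of all 14932 genes were lower in HIOP over CTL. In HIOP_GSK over HIOP 132 were, and in HIOP_GSK over CTL 692. With one of 0.5, 903 were lower in HIOP_GSK over CTL. No filter, or a CPM of 1 in any library, gave 2 lower in HIOP_GSK over HIOP, where 709 of 21288 and 261 of 15543 genes were lower. At a limit of 1.5-fold, 20 replication-dependent rows were higher in HIOP_GSK over HIOP, 17 higher and 2 lower in HIOP_GSK over CTL, and 1 variant was higher in each comparison against CTL. At that limit 8.57% of all genes were higher in HIOP_GSK over HIOP. In HIOP_GSK over CTL 16.8% were higher and 15.9% lower, and in HIOP over CTL 15.5% were higher.

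The 2 alternatives added after the data were seen, rows of 1 symbol summed and rows at 0 TPM left out, moved no count or median of replication-dependent rows past its limit. Depth limits rows such as Hist2h3c2, whose interval for HIOP_GSK over HIOP ran from 0.781 to 3.05.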
